A study of Mus musculus with 19 samples.

Results

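Messenger RNA of 34 genes for glucose uptake, glycolysis and glycogen metabolism was followed in mouse hearts over the first weeks after birth, with and without a conditional knockout (cKO) of PDK1. The genes were picked out by symbol, by a rule that uses no measured value, from the 56066 rows of the deposited expression table. The list of symbols was itself drawn up with earlier results of these data known. They were 4 transporters of glucose and lactate, 9 genes of upper glycolysis, 3 PFKFB genes, 9 genes of lower glycolysis and lactate formation, 8 glycogen genes and Fbp2, a gluconeogenic enzyme. All 34 passed the filter of 1 TPM (the length-adjusted share of transcripts) or more in 3 or more libraries, as did 14812 genes in all.

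The study sequenced RNA of whole hearts and named ages by postnatal day. Wild-type (WT) hearts gave 3 libraries on day 1 (P1), 5 on day 7 (P7) and 4 on day 21 (P21), while cKO hearts gave 3 on day 7 and 3 on day 21. The series design text names the youngest age P0 where the sample labels give P1, and the sample labels were followed. The labels give the genotypes only as WT and PDK1 CKO, and state neither Cre driver, floxed allele nor a strain, other than a "B6" in the titles of P21 WT 2 and 3. They do not say that libraries are separate animals, and p-values therefore measure the spread between these libraries. A further P21 library, numbered 63, is cKO by its genotype label but lacks the KO that ends every other cKO title, and it was left out of every group. All cKO titles and 5 WT titles hold plain numbers, and the other 7 WT titles hold a letter code, so title style was a term of the main fit. Letter codes mark all 3 P1 WT libraries, 2 of the 5 P7 WT and 2 of the 4 P21 WT libraries. The changes between P1 and P7 therefore lean on that term, which is estimated within P7 WT and P21 WT. TPM values keep no sequencing depth, so the depth of each library is unknown. In whole tissue, fewer cells of a type and less RNA per cell cannot be told apart.

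Glucose enters heart muscle cells through facilitative transporters, is phosphorylated by hexokinase, and is then either stored as glycogen or broken down to pyruvate by glycolysis. Most steps are served by several isoenzymes from separate genes, some typical of growing or many tissues and others typical of striated muscle. The heart after birth is known to turn from glucose and lactate towards fatty acids as fuel, while insulin, acting through the kinase PDK1 and AKT, moves GLUT4 to the cell surface and favours glycogen synthesis.

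Which gene was deleted is not spelled out in the labels: PDK1 is a name for the Pdpk1 product, which acts upstream of AKT, and for the Pdk1 product, which switches off pyruvate dehydrogenase. Values below are TPM after median-ratio scaling, called scaled TPM. Pdpk1 stood at 9.82, 9.22, 8.55 and 7.89 in the 4 P21 WT libraries and 6.37, 6.08 and 5.47 in the 3 P21 cKO libraries, without overlap (log2 change -0.37 ± 0.09, SE; limma adjusted p = 0.0202). At P7 it stood at 7.18 to 9.88 in WT and 7.07 to 7.46 in cKO, and the groups overlapped by range. Pdk1 stood at 31.2 to 36.5 in P21 WT and 34.9 to 43.4 in P21 cKO, and its test was not passed (limma adjusted p = 0.464). Values cover whole genes, so a deleted exon would not show. P4ha3, named here after its values were seen, stood at 599 to 782 in the 6 libraries labelled cKO and titled KO and at most 7.19 in the 12 WT libraries.

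Promoter letters are shown for 4 of the genes called at P21. Slc2a1, the GLUT1 gene, was higher in cKO. Phkg1 and Gys1 had the smallest p of the lower glycogen genes. Ldha is a lower gene whose window holds the most motif matches of the 4. The calls of Phkg1 and Gys1 held with each library left out, and those of Slc2a1 and Ldha did not. Each line gives the 250 bases before the RefSeq start, 5′ to 3′ on the gene's strand (GRCm38.p6; Ldha is the first of 2 windows). Capitals mark, on either strand, ACGTG, the core of sites for hypoxia-inducible factors, or CACGTG, the E-box, which contains it. A match on the opposite strand only reads CACGT.
Slc2a1 chr4:119108495-119108744, plus strand: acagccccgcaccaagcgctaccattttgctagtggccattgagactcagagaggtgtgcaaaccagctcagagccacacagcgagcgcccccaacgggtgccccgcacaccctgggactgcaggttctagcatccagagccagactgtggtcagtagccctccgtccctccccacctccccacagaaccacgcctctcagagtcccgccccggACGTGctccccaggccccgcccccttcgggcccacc
Ldha chr7:46845554-46845803, plus strand: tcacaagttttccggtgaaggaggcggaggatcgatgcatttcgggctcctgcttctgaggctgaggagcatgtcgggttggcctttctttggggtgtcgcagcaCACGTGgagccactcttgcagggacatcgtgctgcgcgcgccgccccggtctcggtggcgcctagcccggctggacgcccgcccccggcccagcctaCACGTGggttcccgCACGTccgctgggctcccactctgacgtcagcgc
Phkg1 chr5:129879089-129879338, minus strand: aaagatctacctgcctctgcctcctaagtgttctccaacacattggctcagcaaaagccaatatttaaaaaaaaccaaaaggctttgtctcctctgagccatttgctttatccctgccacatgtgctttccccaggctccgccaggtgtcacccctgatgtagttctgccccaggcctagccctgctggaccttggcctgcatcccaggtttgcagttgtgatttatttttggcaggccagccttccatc
Gys1 chr7:45434589-45434838, plus strand: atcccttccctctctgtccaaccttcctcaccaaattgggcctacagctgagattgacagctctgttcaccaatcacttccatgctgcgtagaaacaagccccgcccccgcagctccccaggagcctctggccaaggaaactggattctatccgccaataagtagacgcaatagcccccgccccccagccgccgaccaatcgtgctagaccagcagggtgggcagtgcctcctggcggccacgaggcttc
The Slc2a1 window holds 1 ACGTG, the Ldha window has 3 marked places, and the Phkg1 and Gys1 windows hold neither motif. RefSeq windows were found for 33 of the 34 genes; Slc2a4 was not matched. On either strand of the same 250 bases, ACGTG was present for 16 of the 33 and for 18.5% of the 27025 genes with windows, and CACGTG for 6 of the 33 and 6.86% of genes. ACGTG was present for 5 of the 12 genes that were lower in P21 cKO and for 11 of the other 21. AAGGTCA, a motif bound by oestrogen-related receptors, was present for 2 of the 33 and 4.70% of genes. For MEF2 only a narrow form of its site was searched, with 4 bases, all adenine or thymine, between CTA and TAG. That form was present for 0 of the 33 and 0.592% of genes. Other forms of the MEF2 site were not searched, so their presence in these windows is unknown. These matches describe letters and not binding.

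Between P1 and P7, WT hearts lost messenger RNA of the GLUT1 gene Slc2a1, the brain-type aldolase gene Aldoc, the glycogenin gene Gyg and several common glycolytic enzymes, and gained that of Fbp2, Hk2, Pfkm, Pfkl, Pfkfb2 and Phkg1. Of the 34 genes 6 rose and 15 fell, against 30.9% of all genes tested that changed (15.6% up, 15.4% down). The median log2 change of the 34 was -0.19, beside 0.01 for all genes. No P7 library overlapped a P1 library for 6 genes that stood above (17.0% of all genes) and 14 that stood below (16.8%). In the same comparison 8 of 12 endothelial, 4 of 10 fibroblast, 4 of 8 smooth muscle and pericyte and 4 of 9 macrophage markers rose, 1 of each of these lists but the fibroblast list fell, and 4 of 4 skeletal muscle markers tested and 2 of 4 atrial markers fell. Of 10 cardiomyocyte markers 1 rose and 1 fell. Atrial markers summed to 1561.2 to 2541.6 scaled TPM at P1 and 270.4 to 742.9 in P7 WT, endothelial markers to 618.9 to 748.9 and 782.7 to 921.0, and skeletal muscle markers to 41.4 to 57.1 and 15.8 to 25.6. The part of these markers in the results was not tested. Without the title style term Eno3 (0.54, limma adjusted p = 0.0108) and Phka1 (0.26, limma adjusted p = 0.03999) were called higher. Aldoa (-0.21, limma adjusted p = 0.0792) and Gys1 (-0.22, limma adjusted p = 0.0897) then lost their calls. The calls of Pfkl (without P1 1, P1 2 or P7 1), Aldoa (P7 3), Pfkfb2 (P7 1), Eno1 (P1 2 or P7 3), Phkg1 (P1 2) and Gys1 (any of 6 of the 8 libraries) were lost when the library named was left out, with log2 changes of 0.23 to 0.49, -0.37 to -0.24, 0.46 to 0.83, -0.84 to -0.74, 0.45 to 0.60 and -0.36 to -0.23 over all libraries left out in turn.

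Between P7 and P21, WT hearts gained messenger RNA of Phkg1, Pfkfb2, Slc2a4, Hk2, Pygm, Pygb, Ldhb and Pfkm, under each scaling run. Of the 34 genes 21 rose and 4 fell, against 54.6% of all genes that changed (26.3% up, 28.3% down), with a median log2 change of 0.30 beside -0.02 for all genes. Every P21 library lay above every P7 library for 18 of the genes (21.6% of all genes) and below for 3 (22.8%). The direction of many of these calls rests on the scaling. Scaling factors were 0.722 to 0.836 in P21 WT libraries and 1.06 to 1.21 in P7 WT libraries, and on TPM as deposited the median gene moved by -0.47. On deposited TPM the 8 genes just named were the ones called higher, 16 of the 34 were called lower, and 9 genes that rose after scaling (Slc16a1, Gpi1, Pfkfb3, Gapdh, Pgk1, Pgam2, Pkm, Gbe1 and Ugp2) had log2 changes below 0. On that scale every P21 library lay above every P7 library for 7 of the 34 (6.13% of all genes) and below for 13 (54.1%). In the same comparison 7 of 10 cardiomyocyte, 9 of 9 macrophage, 5 of 6 erythroid and 2 of 4 skeletal muscle markers tested rose. Of 10 fibroblast markers 7 fell and 1 rose, of 12 endothelial markers 7 fell and 3 rose, and of 8 smooth muscle and pericyte markers 5 fell and 1 rose. The part of these markers in the P21 values was not tested. Library choice ended the calls of Gpi1 (without P21 57), Pfkl (P21 57 or 60), Pgk1 (P7 3), Eno1 (P7 1 or P21 60), Pfkfb1 (5 of the 9 libraries) and Pfkfb3 (6 of the 9), and their log2 changes ranged over 0.18 to 0.30, -0.30 to -0.21, 0.15 to 0.28, -0.66 to -0.49, 0.49 to 0.84 and 0.23 to 0.36.

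At P7 none of the 34 genes differed between cKO and WT hearts by the test (limma; 3 of 14812 genes passed, 0.0203%; 525 genes had an unadjusted p under 0.05), and for all 34 the cKO and WT libraries overlapped (2.28% of all genes lay wholly above and 2.25% wholly below). The largest differences either way were those of Fbp2 (-0.24) and Slc16a3 (0.19). At P21, 2 genes were higher in cKO (Slc2a1 and Gyg) and 12 were lower: Pfkm, Pfkl, Pfkfb1, Gapdh, Pgk1, Eno3, Pkm, Ldha, Ldhb, Gys1, Pygm and Phkg1. Among all genes 9.34% passed (4.39% higher, 4.95% lower). The median log2 change of the 34 was -0.25, beside 0.03 for all genes. No cKO library overlapped a WT library for 3 genes that stood above (Slc2a1, Ugp2 and Gyg; background 11.3% of genes) and 15 that stood below (the 12 named with Tpi1, Gbe1 and Fbp2; background 10.6%). On deposited TPM, where the median gene stood 0.22 higher in cKO, 5 genes were called lower (Gapdh, Eno3, Pkm, Gys1 and Phkg1) and 4 higher (Slc2a1, Slc16a1, Ugp2 and Gyg), and all 14 genes named kept their sign. On that scale every cKO library lay above every WT library for 5 of the 34 (28.5% of all genes) and below for 7 (3.07%). With median-ratio scaling the number called lower ranged from 8 to 15 with 1 library left out, and the number called higher from 0 to 2.

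**Figure D1:**
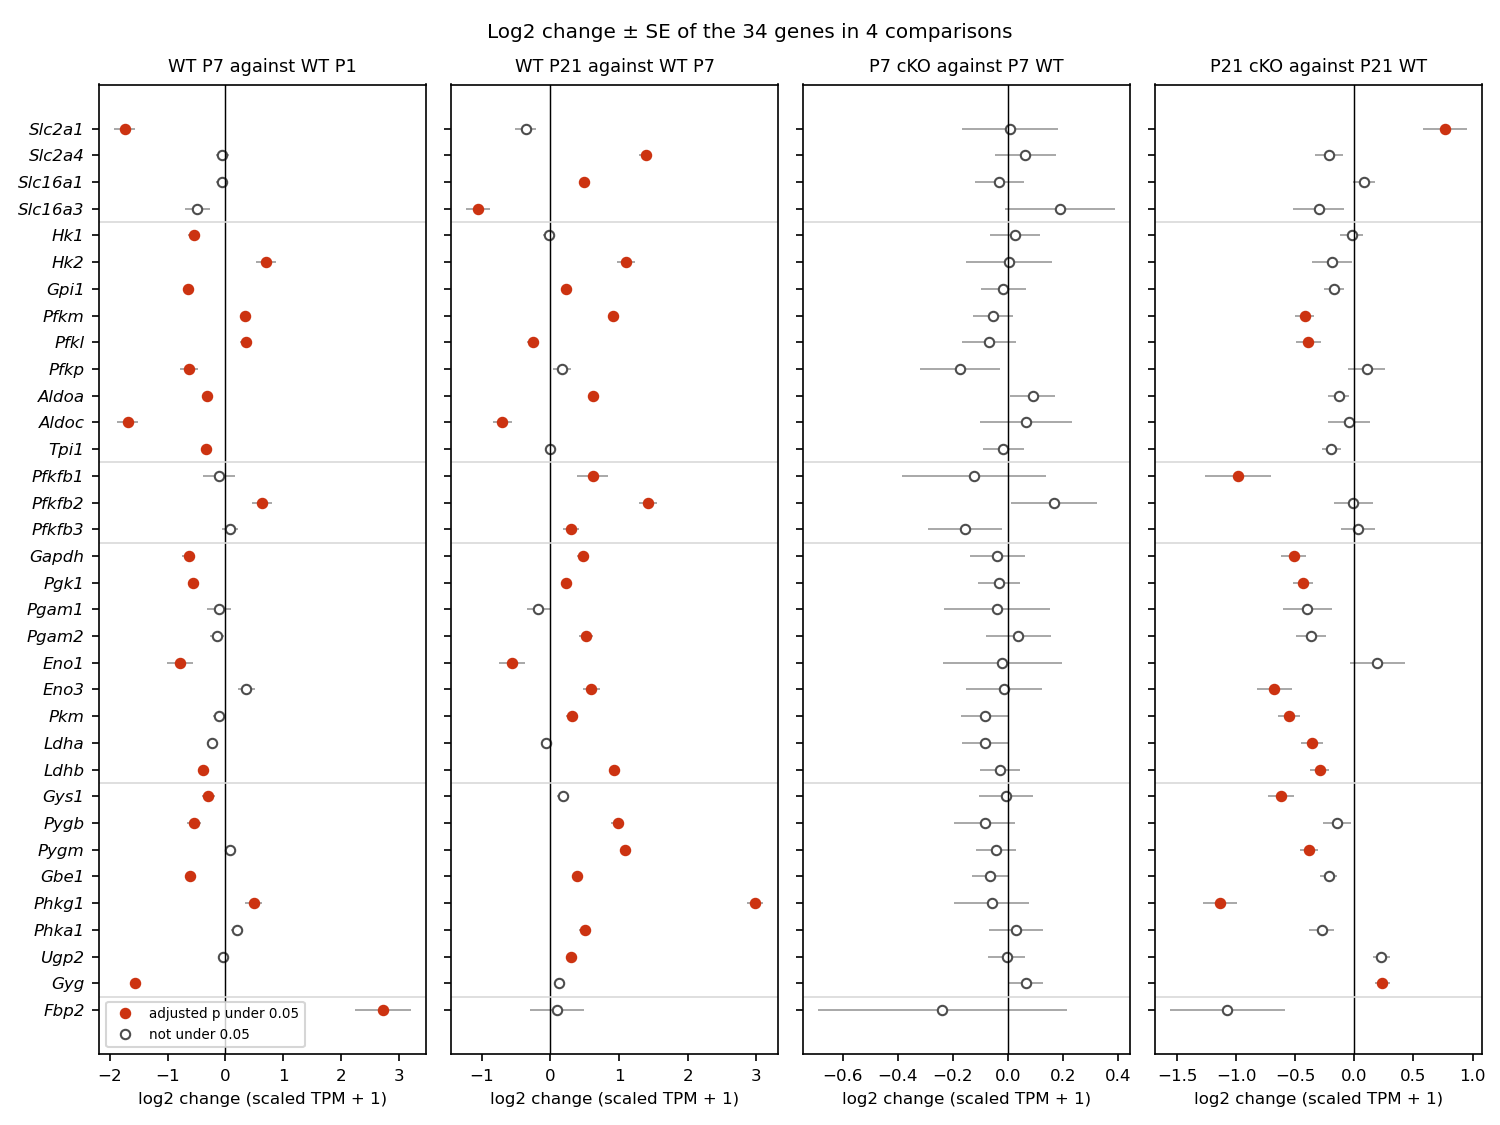
Log2 change of scaled TPM + 1 (x axis; bars are SE) of the 34 genes (y axis, grouped by role from transport at the top to Fbp2 at the bottom) in 4 comparisons, with filled points where the limma adjusted p was under 0.05. The P7 cKO panel has no filled point, and the P21 cKO panel has 2 to the right of 0 and 12 to the left.

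The difference between the knockout effects at P21 and P7 was tested as an interaction in the same fit, where 2.33% of all genes passed (1.04% above 0 and 1.29% below). Of the 34 genes 3 passed, all with a more negative effect at P21: Phkg1 (-1.08 ± 0.18; limma adjusted p = 0.00908), Gys1 (-0.61 ± 0.14; limma adjusted p = 0.0281) and Pkm (-0.47 ± 0.12; limma adjusted p = 0.04998). Gys1 was at 35.2, 34.8, 49.6, 38.7 and 42.96 scaled TPM in P7 WT and 43.8, 39.5 and 40.1 in P7 cKO. Pkm was at 681, 653, 806, 784 and 745 and 779, 692 and 662. At P7 the groups overlapped for all 3 genes. Phkg1 alone kept its call with each library left out in turn, though not among plain-number titles alone (-0.84; limma adjusted p = 0.119). Gys1 lost it in 8 of 15 cases, namely without P7 WT 1, 3 or 76, P7 cKO 69 or 82, P21 WT 2 or 3, or P21 cKO 64 (-0.63 to -0.56 there). Pkm lost it without any library other than P7 WT 72 or P21 WT 60 (-0.53 to -0.40). On deposited TPM only Phkg1 passed below 0, and Slc2a1 (0.94), Ugp2 (0.50) and Gyg (0.44) passed above it. Without P7 WT 72 the number that passed was 8, and without P21 WT 60 it was 7. For the other 31 genes an effect at P21 and none by the test at P7 is not shown to be a difference between the ages.

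Slc2a1, which encodes GLUT1, the transporter of fetal and many growing tissues, was at 11.9, 16.8 and 16.5 scaled TPM in the 3 P1 libraries and at 4.07, 3.21, 5.69, 4.03 and 4.93 in the 5 P7 WT libraries. Every P7 library lay below every P1 library (log2 change -1.74 ± 0.19; limma adjusted p = 1.46e-05). At P21 it was at 2.49, 3.15, 3.28 and 3.38 in WT and 4.53, 7.61 and 8.20 in cKO. All 3 cKO libraries stood above all 4 WT libraries, with cKO 55 nearest to them, and 2 of the 3 exceeded every P7 library as well (log2 change 0.77 ± 0.19; limma adjusted p = 0.0179). Leaving out cKO 64 (0.63), cKO 59 (0.68) or WT 57 (0.74) of that age ended the call, and among plain-number titles alone the limma adjusted p was 0.0523 (log2 change 0.81).

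Slc2a4, the gene of the insulin-responsive transporter GLUT4, moved the other way with age. It was at 58.3, 55.7, 87.2, 76.7 and 76.9 scaled TPM in P7 WT and 166, 165, 201 and 188 in P21 WT, every P21 library being above every P7 library (1.39 ± 0.10; limma adjusted p = 1.25e-08). In P21 cKO it was at 205, 169 and 157, which spans the WT values (-0.21; limma adjusted p = 0.292). Slc2a4 made up 80.6% ± 1.10 of the summed TPM of Slc2a1 and Slc2a4 at P1 (SD, n = 3), 94.2% ± 0.603 in P7 WT (n = 5) and 98.3% ± 0.177 in P21 WT (n = 4). A share within a library does not depend on scaling between libraries. In P21 cKO it was 96.2% ± 1.46 (n = 3), with libraries at 95.05% to 97.8% against 98.1% to 98.5% in WT.

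Slc16a1 and Slc16a3 encode the lactate transporters MCT1 and MCT4, MCT1 being the main form of oxidative muscle. Slc16a3 fell between P7 WT (5.35, 3.32, 6.45, 3.82 and 4.81) and P21 WT (1.62, 1.30, 2.04 and 1.79), with a log2 change of -1.06 ± 0.17 (limma adjusted p = 1.05e-04). Slc16a1 was at 48.2, 39.8, 58.9, 53.6 and 56.98 in P7 WT and 60.8, 65.3, 88.2 and 70.6 in P21 WT, so that its share of the pair was 91.6% ± 1.46 and then 97.7% ± 0.278. At P21 neither gene passed the test of cKO against WT (limma adjusted p = 0.653 and 0.424), although on deposited TPM Slc16a1 did (0.32; limma adjusted p = 0.0193).

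**Figure D2:**
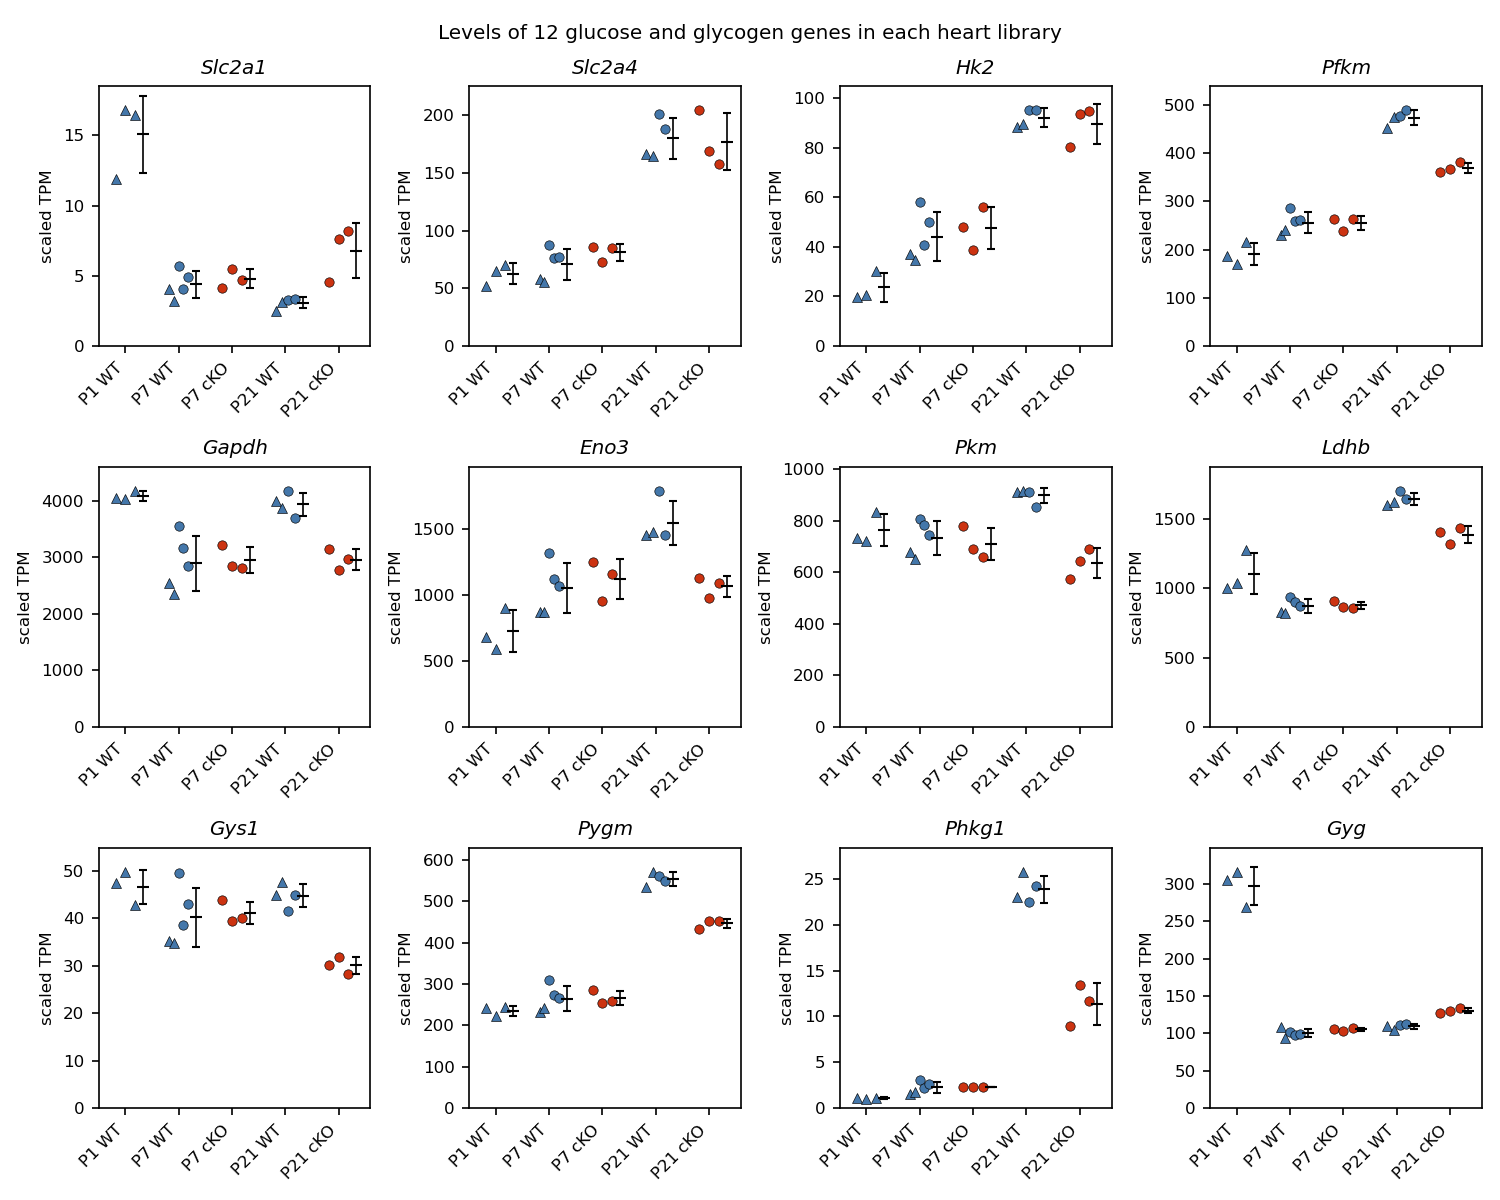
Scaled TPM (y axis, from 0) of 12 genes in each library of the 5 groups (x axis), with WT in blue and cKO in red, triangles for letter-code titles and circles for plain-number titles, and mean ± SD beside each group. Slc2a1 and Gyg are highest at P1, Phkg1 is at most 3.07 in P7 WT and at least 22.5 in P21 WT, and the P21 cKO points of Pfkm, Gapdh, Eno3, Pkm, Ldhb, Gys1, Pygm and Phkg1 all lie below those of P21 WT.

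The first steps trap glucose in the cell and commit it to breakdown. Hk2, the hexokinase of insulin-sensitive muscle, was at 19.9, 20.7 and 30.2 scaled TPM at P1, 36.9, 34.7, 58.2, 40.5 and 49.97 in P7 WT and 88.1, 89.5, 95.3 and 95.2 in P21 WT. It rose in both intervals (0.70 ± 0.17, limma adjusted p = 0.00581, then 1.10 ± 0.14, limma adjusted p = 6.53e-06), and the 3 ages did not overlap. Hk1, the broadly expressed hexokinase, was at 102, 113 and 85.99 at P1 and 72.7, 65.1, 85.1, 71.2 and 79.9 in P7 WT, and fell in that interval (-0.54; limma adjusted p = 7.44e-04). Hk2 was 19.3% ± 5.88 of the 2 hexokinases at P1 and 56.1% ± 1.47 in P21 WT, and 53.9% ± 1.34 in P21 cKO. In P21 cKO Hk2 stood at 80.1, 93.6 and 94.7 and Hk1 at 71.03, 82.1 and 76.2, and neither passed (limma adjusted p = 0.544 and 0.917).

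Phosphofructokinase, the main control point of glycolysis, is encoded by Pfkm (muscle), Pfkl (liver) and Pfkp (platelet). Pfkm was at 187, 171 and 216 scaled TPM at P1, 231, 241, 286, 259 and 262 in P7 WT and 453, 475, 478 and 491 in P21 WT, rising in both intervals (0.34 ± 0.08, limma adjusted p = 0.00393, and 0.90 ± 0.06, limma adjusted p = 1.39e-08). In P21 cKO it was at 362, 368 and 381, below all 4 WT libraries and above all 8 libraries of P7 (-0.42 ± 0.08; limma adjusted p = 0.00386). Its call survived the loss of any library but was lost without scaling (-0.18; limma adjusted p = 0.0662). Pfkl stood at 42.4, 41.7, 42.8 and 40.98 in P21 WT and 31.9, 33.2 and 34.4 in P21 cKO, again without overlap (-0.39 ± 0.11; limma adjusted p = 0.0317). The Pfkl call rested on the library set: it was lost without any of the 7 P21 libraries except WT 60 (-0.41 to -0.36). It was also lost without scaling (-0.15, limma adjusted p = 0.238), after quantile normalization (-0.32, limma adjusted p = 0.0504) and with no filter (-0.39, limma adjusted p = 0.0595).

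Pfkp did not pass the test at P21. It was at 36.2, 35.2, 55.5 and 36.6 in P21 WT, where library 57 stood apart, and 59.4, 42.7 and 39.4 in P21 cKO (0.10; limma adjusted p = 0.737). An annotated neighbour, Pitrm1, overlaps part of its transcript, and whether reads were counted by strand is not stated, so their reads cannot be told apart there. Pfkm made up 67.9% ± 2.02 of the 3 genes at P1, 74.6% ± 1.11 in P7 WT, 85.2% ± 1.55 in P21 WT and 82.2% ± 2.06 in P21 cKO, where the range of 79.8% to 83.8% overlapped that of P21 WT (82.9% to 86.3%).

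The aldolase genes differed by orders of magnitude. Aldoa, the muscle aldolase, was at 1646 to 1980.4 scaled TPM at P1, 1288 to 1743 in P7 WT, 2258 to 2401 in P21 WT and 2197 to 2315 in P21 cKO, and its rise between P7 and P21 (0.62; limma adjusted p = 2.75e-06) was -0.09 after quantile normalization. Aldoc, the brain form, was at 6.87, 6.96 and 5.97 at P1, 1.69, 1.30, 0.795, 1.04 and 1.32 in P7 WT and 0.770, 0.0527, 0.485 and 0.287 in P21 WT, falling in both intervals (-1.69 ± 0.18, limma adjusted p = 1.28e-05, and -0.70 ± 0.14, limma adjusted p = 7.28e-04). No library of one age overlapped the next. Gpi1, which interconverts the first hexose phosphates, fell after P1 (-0.64) with 365 to 465 at P1 and 253 to 299.8 in P7 WT, and Tpi1, which balances the triose phosphates, fell likewise (-0.34) with 614 to 757 and 502 to 607. At P21 Tpi1 was at 536, 524, 625 and 526 in WT and 518, 497 and 504 in cKO, a narrow gap that did not pass (-0.19; limma adjusted p = 0.142); without WT 60 it did (-0.27; limma adjusted p = 0.0409).

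PFKFB enzymes make and remove fructose 2,6-bisphosphate, the strongest activator of phosphofructokinase. Pfkfb2, the heart form, was at 3.94, 5.74 and 3.08 scaled TPM at P1, 7.83, 6.44, 9.05, 10.4 and 8.86 in P7 WT and 18.6, 21.4, 23.5 and 32.7 in P21 WT, and rose in both intervals (0.63 ± 0.17, limma adjusted p = 0.0102, and 1.42 ± 0.14, limma adjusted p = 4.07e-07). In P21 cKO it was at 26.6, 25.5 and 29.2, within the WT spread. An annotated transcript, Gm29427, shares sequence with Pfkfb2 and stood at 3.93 to 7.09 in P7 WT and 9.45 to 21.4 in P21 WT, so reads of the pair cannot be told apart. Pfkfb1 was low throughout, with 4.77, 5.11, 1.66 and 3.13 in P21 WT and 0.242, 1.21 and 1.65 in P21 cKO (-0.98 ± 0.28; limma adjusted p = 0.0386). WT 57 lay just above the highest cKO library, and the call was lost without P21 WT 2, 3 or 60 or P21 cKO 55 or 59 (-1.08 to -0.67), on deposited TPM (-0.77) and among plain-number titles alone (-0.77). Pfkfb3, the inducible form, stood at 3.48, 3.52, 3.60 and 4.22 in P21 WT and 5.71, 3.90 and 3.10 in P21 cKO and did not pass (limma adjusted p = 0.927).

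Lower glycolysis yields ATP and pyruvate. By the test 6 of its 9 genes were lower in P21 cKO, beside 4.95% of all genes. On deposited TPM Pgk1, Ldha and Ldhb lost that call. Gapdh, the glyceraldehyde phosphate dehydrogenase gene often used as a reference gene, was at 3995, 3864, 4165 and 3700.2 scaled TPM in P21 WT and 3139.9, 2774 and 2959.7 in P21 cKO, with every cKO library below every WT library (-0.51 ± 0.11; limma adjusted p = 0.00752). The difference was -0.22 after quantile normalization (limma adjusted p = 0.404) and -0.41 among plain-number titles alone (limma adjusted p = 0.0519). Gapdh was also lower in P7 WT (2542, 2345, 3544, 3168 and 2848) than at P1 (4045, 4021 and 4175; -0.64, limma adjusted p = 4.79e-04). The annotation holds 78 genes with transcripts at least 95% identical to Gapdh over 200 bases, and these held 29.5% to 32.0% of the summed TPM in every library; with them added, the P21 difference was -0.49 (limma adjusted p = 0.00967). That alternative was chosen after the data were seen.

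Pgk1, which makes the first ATP of glycolysis, was at 422, 399, 424 and 385 in P21 WT and 295, 319 and 319.9 in P21 cKO, without overlap (-0.44 ± 0.08; limma adjusted p = 0.00462; -0.19 on deposited TPM, limma adjusted p = 0.0706). The phosphoglycerate mutases Pgam1 (brain form) and Pgam2 (muscle form) did not pass. Pgam2 stood at 764, 743, 961 and 699.7 in P21 WT and 732, 614 and 654 in P21 cKO (-0.37; limma adjusted p = 0.085), and Pgam1 at 55.05, 52.7, 78.98 and 40.4 and 51.96, 38.8 and 42.7 (-0.40; limma adjusted p = 0.26). In each gene 1 WT library overlapped the cKO values, and without that library, WT 60, both passed (-0.54 and -0.70; limma adjusted p = 0.0102 and 0.0232). Pgam2 held 89.7% ± 0.640 of the pair at P1, 93.4% ± 0.878 in P21 WT and 93.8% ± 0.352 in P21 cKO.

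Enolase turns from the common form, Eno1, to the muscle form, Eno3, as the heart matures. Eno3 was at 681, 595 and 903 scaled TPM at P1, 874, 870.2, 1321, 1125 and 1069 in P7 WT and 1452, 1477, 1791 and 1454 in P21 WT, and rose between P7 and P21 (0.59 ± 0.12; limma adjusted p = 6.35e-04; 0.04 on deposited TPM and after quantile normalization). In P21 cKO it was at 1126, 977 and 1094, below all P21 WT libraries and inside the range of the P7 libraries (-0.68 ± 0.15; limma adjusted p = 0.0103). The call held with each library left out (-0.81 to -0.62) and under each scaling.

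Eno1 could not be read from its own row alone. Eno1b and Gm4735, annotated genes nearly identical to Eno1 in transcript, were under 1 scaled TPM in 10 of the 18 libraries and between 14.4 and 91.1 in the other 8, and took up to 41.7% of the summed TPM of Eno1 and its near-identical genes in a library. All of those 8 libraries have plain-number titles, and every library with a letter code was under 1. P7 cKO 75, P21 WT 57 and P21 cKO 59, also with plain numbers, were under 1 too. Eno1 itself stood at 231, 219, 212 and 160.1 in P21 WT and 201, 268 and 158 in P21 cKO, overlapping (0.19; limma adjusted p = 0.663). Summed over the 3 genes, the P21 WT libraries stood at 231, 219, 212 and 198 and the cKO libraries at 254, 269 and 266. With copies summed, a choice made after the data were seen, all 3 cKO libraries lay above all 4 WT libraries (log2 change 0.32 ± 0.07; limma adjusted p = 0.0156). The sums were 590.6 ± 41.4 at P1 (SD, n = 3), 355.8 ± 12.1 in P7 WT (n = 5) and 214.9 ± 13.8 in P21 WT (n = 4). On this sum, Eno3 was 54.8% ± 5.97 of enolase TPM at P1, 74.4% ± 3.15 in P7 WT, 87.7% ± 1.35 in P21 WT and 80.2% ± 1.62 in P21 cKO, where 78.4% to 81.6% lay below the 86.3% to 89.4% of WT.

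**Figure D3:**
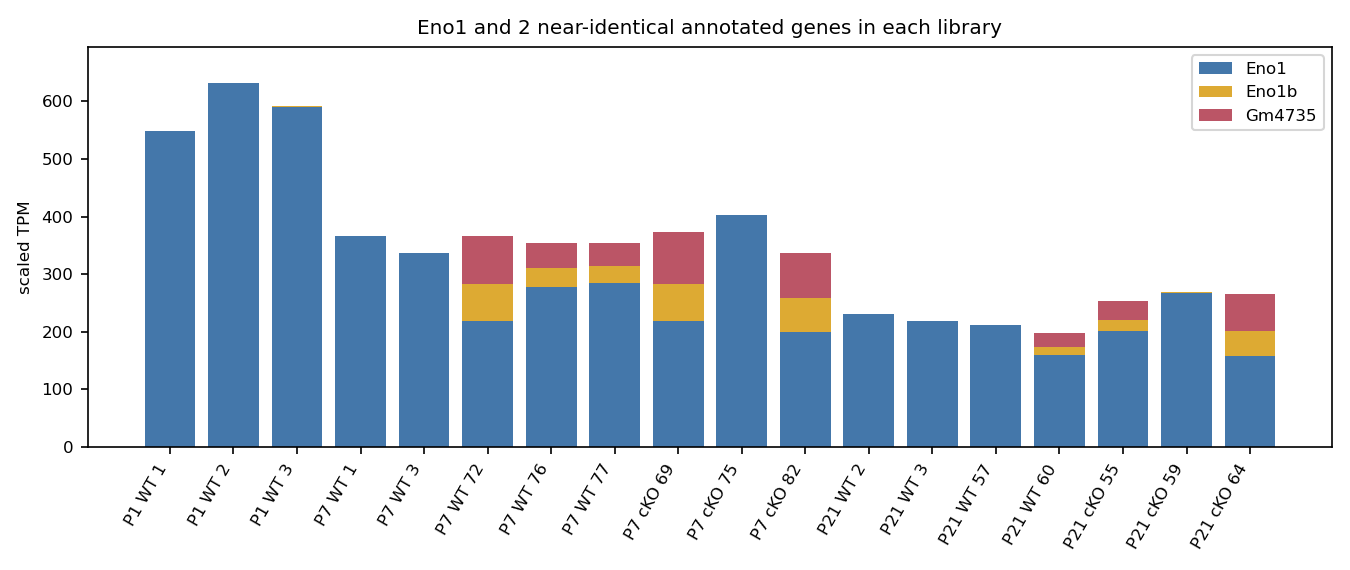
Scaled TPM (y axis, from 0) of Eno1 and of 2 near-identical annotated genes, stacked, in each of 18 libraries (x axis). The copies appear in 8 libraries, all with plain-number titles, and are near 0 in the other 10. The P21 cKO sums (254 to 269) exceed the P21 WT sums (198 to 231).

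Pkm, the pyruvate kinase gene of muscle and growing cells, was at 913, 918, 912 and 855 scaled TPM in P21 WT and 575, 644 and 691 in P21 cKO. Every cKO library lay below every WT library by more than the spread within either group (-0.55 ± 0.09; limma adjusted p = 0.00191), and this held under each scaling and with each library left out (-0.62 to -0.48). The highest P21 cKO value also lay inside the range of the P7 WT libraries (653 to 806). The table gives whole genes, so the M1 and M2 splice forms were not separated.

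Lactate dehydrogenase interconverts pyruvate and lactate, with Ldhb as the heart form and Ldha as the muscle form. Ldhb was at 831, 819.6, 939, 897 and 873 in P7 WT and 1598, 1617, 1702 and 1645 in P21 WT, every P21 library being above every P7 library (0.92 ± 0.06; limma adjusted p = 1.10e-08), and its share of the pair was 57.1% ± 0.967 and then 72.7% ± 0.956. In P21 cKO Ldhb stood at 1404, 1316 and 1431 (-0.29 ± 0.08; limma adjusted p = 0.0287) and Ldha at 479, 528 and 527, against 570.1, 606, 682 and 613 in WT (-0.36 ± 0.09; limma adjusted p = 0.025). Both were below every WT library, and the Ldhb share was 73.000% ± 1.60. Both calls were lost without P21 WT 57 or P21 cKO 55, 59 or 64 (Ldhb -0.32 to -0.26, Ldha -0.38 to -0.31) and on deposited TPM (-0.05 and -0.11), and Ldhb also after quantile normalization (-0.06). With no filter both were lost too (limma adjusted p = 0.0632 for Ldhb and 0.0520 for Ldha). Without the title style term Ldha was not called (-0.27, limma adjusted p = 0.0864).

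**Figure D4:**
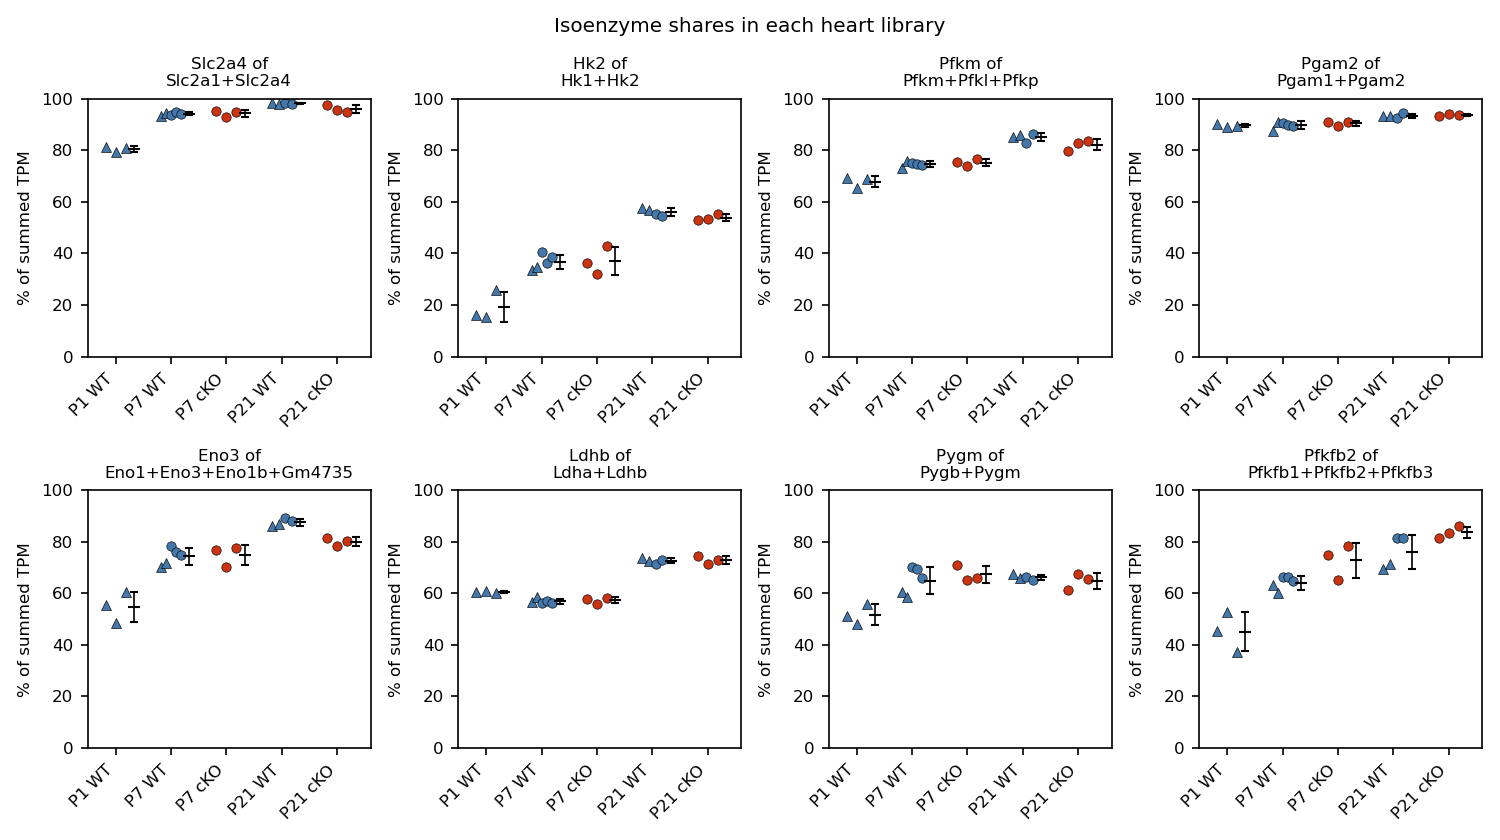
Share of 1 isoenzyme gene in the summed TPM of its group (y axis, 0 to 100%) in each library of the 5 groups (x axis), with symbols as in the plot of levels and mean ± SD beside each group. The mean Hk2, Pfkm, Eno3 and Pfkfb2 shares are higher at each later age in WT, the mean Ldhb share is higher at P21 than at P7, and the P21 cKO libraries lie below P21 WT for the Slc2a4 share and for the Eno3 share with Eno1b and Gm4735 added to Eno1.

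Glycogen is started on glycogenin, extended by glycogen synthase and branching enzyme, and broken down by phosphorylase, which phosphorylase kinase switches on. Gyg, the glycogenin gene, was at 306, 316 and 269 scaled TPM at P1 and 108, 93.6, 102, 98.2 and 98.6 in P7 WT, far below every P1 library (-1.57 ± 0.07; limma adjusted p = 4.47e-09). At P21 it was at 109.8, 104, 111 and 113 in WT and 127, 129.5 and 133 in cKO, where all 3 cKO libraries lay above all 4 WT libraries (0.24 ± 0.07; limma adjusted p = 0.0355). That small difference was not called without any 1 of the 7 P21 libraries other than WT 60 (0.22 to 0.25). Ugp2, which makes the UDP-glucose used for glycogen, showed the same order with 116, 114, 121 and 115 in WT and 149, 141 and 139.9 in cKO, but did not pass (0.23 ± 0.07; limma adjusted p = 0.0627); it passed on deposited TPM (0.47), after quantile normalization (0.27) and with scaling over genes of at least 10 TPM (0.29).

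Gys1, the muscle glycogen synthase gene, was lower in P21 cKO. It was at 44.998, 47.6, 41.6 and 45.03 in P21 WT and 30.1, 31.8 and 28.4 in P21 cKO, and the cKO libraries also lay below all 11 libraries of P1 and P7 (-0.62 ± 0.11; limma adjusted p = 0.00233). The call held under each scaling and with each library left out (-0.72 to -0.58). Its transcript overlaps Ruvbl2, which stood at 15.3 to 19.5 in P21 WT and 19.9 to 20.9 in P21 cKO. Gbe1, the branching enzyme gene, stood at 31.8, 30.8, 31.8 and 29.95 and 26.2, 28.5 and 25.8, below WT in every cKO library but not past the test (-0.22; limma adjusted p = 0.0699).

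The phosphorylases are Pygm, the muscle form, and Pygb, the brain form that the heart also expresses. Pygm was at 233, 242, 309, 274 and 267 in P7 WT and 534, 572, 562 and 548 in P21 WT (1.08 ± 0.06; limma adjusted p = 1.55e-09), and Pygb at 152, 171, 131, 121 and 138 and 257, 295, 286 and 291 (0.98 ± 0.10; limma adjusted p = 5.94e-07). All P21 libraries of both genes exceeded all P7 libraries. In P21 cKO Pygm was at 433, 453 and 453, below all WT libraries (-0.38 ± 0.08; limma adjusted p = 0.00649; -0.14 on deposited TPM, limma adjusted p = 0.149), whereas Pygb at 275, 219 and 235 overlapped WT (-0.15; limma adjusted p = 0.481).

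Phkg1, the catalytic subunit of muscle phosphorylase kinase, had the largest rise and the largest fall that passed after P7. It was at 1.14, 0.979 and 1.15 scaled TPM at P1, 1.55, 1.76, 3.07, 2.22 and 2.67 in P7 WT and 2.26, 2.29 and 2.28 in P7 cKO. In P21 WT it was at 23.1, 25.8, 22.5 and 24.2, beyond the range of every earlier library (2.98 ± 0.12; limma adjusted p = 2.87e-11). The 3 P21 cKO libraries stood at 8.95, 13.4 and 11.7, above every P7 library and below every P21 WT library (-1.14 ± 0.14; limma adjusted p = 2.77e-04). Its transcript overlaps Sumf2, which stood at 3.85 to 7.04 in P21 WT and 5.69 to 6.13 in P21 cKO. The call held under each alternative run, with log2 changes of -1.25 to -0.99 with each library left out. Phka1, a regulatory subunit, was at 9.91, 9.79, 12.8 and 9.49 in P21 WT and 9.58, 8.16 and 8.56 in P21 cKO (-0.28; limma adjusted p = 0.119), and passed only without WT 60 among the libraries left out (-0.38; limma adjusted p = 0.0438).

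Fbp2, muscle fructose bisphosphatase, catalyses the step opposite to phosphofructokinase. It was at 1.59, 0.337 and 8.72 scaled TPM at P1 and 17.8, 24.96, 15.4, 19.9 and 18.7 in P7 WT, where all 5 libraries exceeded the 3 widely spread P1 values (2.73 ± 0.48; limma adjusted p = 7.36e-04). At P21 it was at 19.7, 22.7, 17.8 and 23.2 in WT and 5.76, 11.3 and 10.3 in cKO. The cKO libraries lay below all WT libraries of P7 and P21, but the fitted difference did not pass (-1.07 ± 0.48, limma adjusted p = 0.187). Its SE rests on a spread shared by all 18 libraries, the widely spread P1 values among them. Among plain-number titles alone, which include no P1 library, it passed (-1.12 ± 0.23, limma adjusted p = 0.0240).

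Summed over the 34 genes, messenger RNA was 1.57% ± 0.02 of deposited TPM at P1 (SD, n = 3), 1.26% ± 0.08 in P7 WT (n = 5), 1.20% ± 0.04 in P21 WT (n = 4) and 1.15% ± 0.02 in P21 cKO (n = 3). In scaled TPM the sums were 13430 ± 989.5 at P1, 11140 ± 1240 in P7 WT and 15470 ± 766 in P21 WT, so the direction between P7 and P21 WT depends on the scaling. On that scale the sum was 12800 ± 354 in P21 cKO, and its libraries did not overlap those of P21 WT (12422 to 13125 against 14882 to 16597). The 8 glycogen genes summed to 1173 ± 31.6 in P21 WT and 1040 ± 17.4 in P21 cKO on that scale, and to 0.091% ± 0.005 and 0.093% ± 0.001 of deposited TPM, so the direction of that sum in cKO depends on the scaling too.

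**Figure D5:**
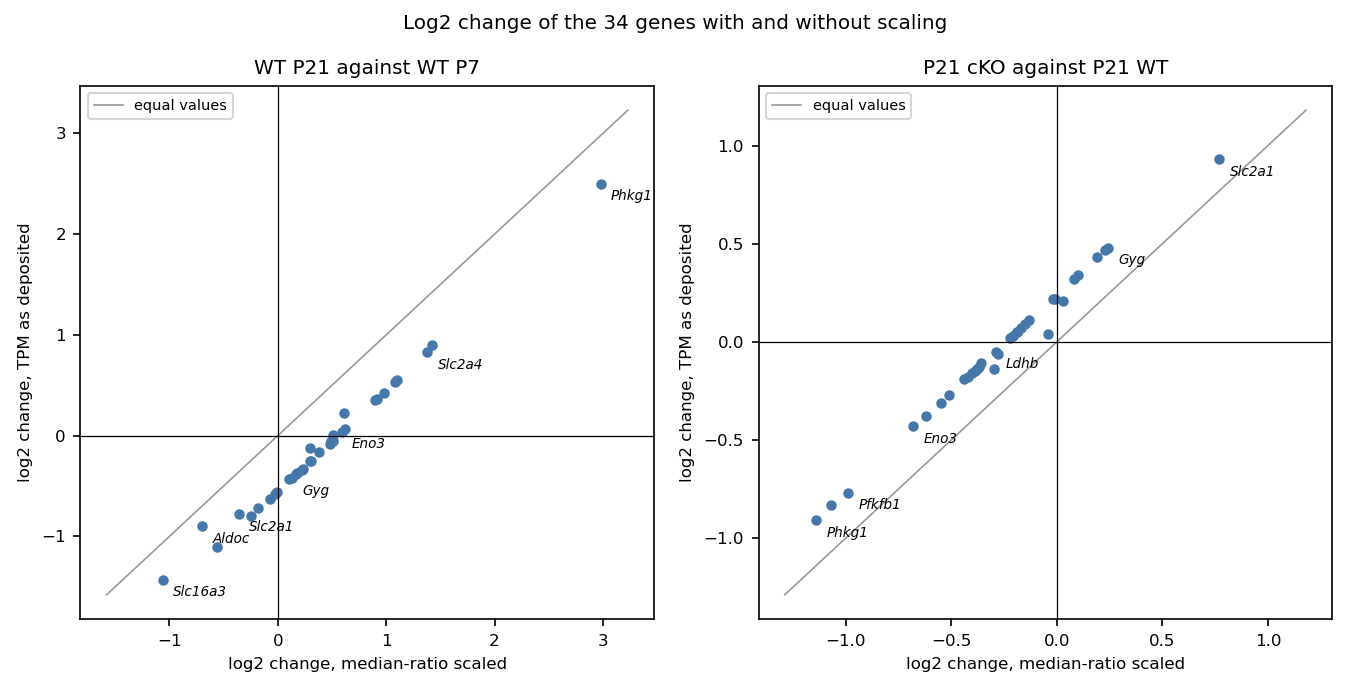
Log2 change of each of the 34 genes after median-ratio scaling (x axis) and on TPM as deposited (y axis) for WT P21 against WT P7 (left) and P21 cKO against P21 WT (right), with a grey line of equal values. Points lie below the line on the left and above it on the right, beside median changes of -0.47 and 0.22 over all genes on deposited TPM.

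Other genes of the same pathways were read from lists of related genes. Of 27 further transport and glycolysis genes tested, 1 was higher in P21 cKO (Slc16a7, a monocarboxylate transporter, 0.77) and 2 were lower, against 4.39% higher and 4.95% lower among all genes. The lower genes include Gpd1, which links glycolysis to glycerol. Gpd1 was at 29.9, 30.7, 34.3 and 30.9 scaled TPM in P21 WT and 23.4, 18.96 and 18.9 in P21 cKO (-0.70 ± 0.20; limma adjusted p = 0.0399). Of 22 further glycogen genes none was higher and 5 were lower, among them Pgm1, the phosphoglucomutase that links glycogen to glycolysis, Ppp1r3a and Ppp1r3d, which target a phosphatase to glycogen, and Phkb, another phosphorylase kinase subunit. Pgm1 was at 139, 143, 144 and 140.2 in P21 WT and 108, 106 and 109.8 in P21 cKO (-0.45 ± 0.07; limma adjusted p = 0.00101), and Phkb at 31.8, 29.8, 27.4 and 29.03 and 21.7, 20.7 and 21.1 (-0.44 ± 0.12; limma adjusted p = 0.0251). Neither overlapped between groups. In the interaction Pgm1 (-0.45; limma adjusted p = 0.0152) and Ppp1r3a (-0.58; limma adjusted p = 0.0382) passed too.

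None of 15 genes of the pentose phosphate and hexosamine pathways passed at P21 (limma), and their median log2 change was 0.01. Of 17 regulators of glucose genes tested, 2 were higher in P21 cKO, beside 4.39% of all genes. Hif1a, the hypoxia-inducible factor subunit, was at 25.3, 23.8, 19.3 and 27.5 in WT and 28.9, 33.6 and 40.95 in cKO (0.56 ± 0.16; limma adjusted p = 0.0409). Myc was at 1.46, 1.34, 3.04 and 1.97 in WT and 11.01, 3.68 and 3.87 in cKO (1.01 ± 0.28; limma adjusted p = 0.0369), with cKO 55 far above the other cKO libraries. For both genes all cKO libraries lay above all WT libraries, and the bearing of either gene on the 34 was not tested. Between P7 and P21 in WT, 15 of the 27 transport and glycolysis genes rose and 6 fell, and 10 of the 22 glycogen genes rose and 8 fell, against 26.3% of all genes that rose and 28.3% that fell. Those with the smallest p were Ldhd (2.28), Pcx (1.40) and Mpc1 (1.25), which handle lactate and pyruvate in mitochondria, and Tbc1d1 (-1.24), which controls GLUT4 traffic, and among glycogen genes Ppp1r3a (1.27), Epm2a (1.13), Gaa (0.73) and Pgm2 (-0.70). Between P1 and P7 in WT, 6 of the 27 rose and 5 fell, and 6 of the 22 rose and 3 fell, against 15.6% and 15.4% of all genes. Klf15, a regulator of metabolic genes in muscle, fell between P1 and P7 (-2.19) and rose between P7 and P21 (1.89), both by the test (limma adjusted p = 1.81e-06 and 3.37e-08).

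Markers of cell types were read on the same scale. The 10 cardiomyocyte markers summed to 69980 to 79585 scaled TPM in P21 WT and 67893 to 68610 in P21 cKO. By the test 1 of these 10 was lower in P21 cKO and none higher. Their median log2 change was -0.20, beside -0.25 for the 34 genes. Fibroblast markers (10) summed to 919.8 to 1078.7 in P21 WT and 1194.1 to 1417.8 in P21 cKO, with 6 of the 10 higher by the test, endothelial markers (12) to 619.4 to 693.9 and 784.9 to 815.8, with 1 of 12 higher, and smooth muscle and pericyte markers (8) to 657.5 to 841.3 and 865.8 to 1134.2, with 2 of 8 higher. Macrophage markers (9) summed to 204.2 to 328.2 in P21 WT and 165.9 to 215.3 in P21 cKO. Fast skeletal muscle markers (10) summed to 63.2 to 71.8 in P21 WT and 15.8 to 25 in P21 cKO, with 2 of the 4 tested lower, but 6 of the 10 (Tnnc2, Actn3, Atp2a1, Myh1, Myh2 and Myh4) were under 1 scaled TPM in every library of both groups. Erythroid markers ranged widely in both groups (7443.8 to 21329.5 in P21 WT and 11726.5 to 24081.8 in P21 cKO). Atrial markers summed to 348.7 to 686.3 and 9148.4 to 17572.3, and without Nppa, which ventricles also make under load, to 108.4 to 184.2 and 39.6 to 283.8. These sums stood beside the genes called lower or higher and the higher Eno1 sum of P21 cKO, and their part in those results was not tested.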

How the data were processed

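Heart RNA was prepared with the SMARTER mRNA-Seq kit, per the labels' protocols. The deposited table holds TPM per gene for 19 libraries; TopHat2 2.0.14, Cufflinks 2.2.1 and mm10 are named in the submitters' processing notes, and the program that made the TPM values, the annotation and the use of strand are not given in the sources used here. Of 56066 rows, 55487 carry Ensembl gene identifiers and the other 579 do not. A total of 3 columns (2 of no sample here and 1 mean of libraries) were not used, and the authors' other means entered no test. The unit turned out to be TPM, where FPKM or TPM had been allowed for.

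TPM was scaled by median ratios over 11098 genes with at least 1 TPM in every library. Genes that reached 1 TPM in 3 or more libraries (14812) were fitted on log2(scaled TPM + 1) with limma 3.58.1 (trended eBayes, R 4.3.3, 12 residual degrees of freedom) over 18 libraries, with group and title style as terms, Benjamini-Hochberg adjustment over all genes and a threshold of 0.05. Fold changes on this scale understate those of low genes. The procedure was tested on simulated data. Other settings tried were no scaling, scaling over genes of at least 10 TPM, quantile normalization, a pseudocount of 0.1, a filter of 5 TPM or none, no title term, plain-number titles alone, a replicate block and each library left out. Near-identical transcripts (at least 95% over 200 bases) were found with BLAST 2.17.0. Promoter letters come from RefSeq, GRCm38.p6.

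The 34 genes and all lists were chosen with earlier results of these data known. All 34 are named. Values per library were given for genes past a knockout or interaction test, past an age test with a log2 change of at least 1, or in a described isoenzyme group, and up to 4 genes of smallest p were named per further list and comparison; exceptions are marked. Some genes of the further lists are not reported here.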

Additional observations from a re-analysis of the deposited data

Results flagged for a closer look

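Each of the 34 genes was checked in P7 WT (5 libraries) and again in P21 WT (4 libraries), and 1 library stood apart in 7 of these checks. Chance alone sets a library apart in about 1 in 20 checks by this measure. Checks that share libraries are not independent. P21 WT 57 was the highest P21 WT library, far from the others, for Pfkp (55.5 scaled TPM), Tpi1 (625), Eno3 (1790 to 3 digits) and Phka1 (12.8). P21 WT 60 stood apart for Pfkfb3 (4.22) and as the lowest for Pkm (855). P7 WT 3 stood apart for Pgam1 (46.1).

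The knockout effect differed between P21 and P7 by the interaction test for 3 genes (limma), with differences in log2 change of -0.47 for Pkm, -0.61 for Gys1 and -1.08 for Phkg1.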

How the results depend on the processing

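Without scaling, WT P21 against P7 gave log2 changes of opposite sign for Slc16a1 (-0.05), Gpi1 (-0.33), Pfkp (-0.38), Pfkfb3 (-0.12), Gapdh (-0.08), Pgk1 (-0.34), Pgam2 (-0.05), Pkm (-0.25), Gys1 (-0.37), Gbe1 (-0.16), Ugp2 (-0.25) and Gyg (-0.42), and quantile normalization did so for Aldoa (-0.09), Gapdh (-0.35), Pgk1 (-0.04) and Pkm (-0.02). In that comparison 8 genes were higher and 16 lower without scaling, and 7 lower after quantile normalization. Without scaling 6.13% of all genes lay wholly above and 54.1% wholly below in it. In P21 cKO, 4 were higher, 5 lower and 3155 of all genes passed without scaling, where 28.5% of all genes lay wholly above and 3.07% wholly below. For P7 cKO, 7 of all genes passed with no filter. In the interaction, all genes passing numbered 1120 without scaling, 88 among plain-number titles and 194 with the replicate block; of the 34, 3 passed above 0 without scaling and 1 after quantile normalization, and 1 passed below 0 without scaling, with scaling over genes of at least 10 TPM, after quantile normalization, with no filter or with the replicate block, and 0 among plain-number titles. Beyond the change of genes or samples that a setting makes, the cause was not tested.

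With 1 library left out, genes passing ranged over 2 to 5 for P7 cKO, 783 to 1774 for P21 cKO (34-gene calls 0 to 2 higher, 8 to 15 lower), 3542 to 4491 for P7 against P1 (4 to 7, 12 to 16), 7370 to 7789 for P21 against P7 (18 to 21, 2 to 5) and 125 to 535 for the interaction (0 to 1, 1 to 8). The P21 cKO count for all genes was 783 without P21 WT 57, 806 without P21 cKO 59 and 860 without P21 cKO 64.

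Same-numbered libraries did not deviate together from the mean of the letter-coded libraries of their group (correlations across genes -0.10 to 0.07 in 5 pairs). Each group holds only 2 or 3 letter-coded libraries, so these values cannot show whether same-numbered libraries share more than a number. With the replicate block, calls were lost for Pfkfb1 in P21 cKO (-0.93; limma adjusted p = 0.0687), Gys1 in P7 against P1, Pfkfb1 and Pfkfb3 in P21 against P7, and Pkm and Gys1 in the interaction, and Gyg was gained in P21 against P7. TPM keeps no depth, so the precision of low genes such as Pfkfb1, Aldoc and Slc16a3 is unknown.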

Other observations

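The library numbered 63, whose genotype label and title disagree, lay within the range of P21 WT and outside that of P21 cKO for 17 of the 34 genes, within both ranges for 10 and within neither for 7. Its P4ha3 value was 0.0624 scaled TPM, beside 0.0898 to 0.395 in P21 WT and 599 to 661 in P21 cKO. The labels conflict, and it was put in no group.

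The deposited table also holds the authors' own mean columns. The one headed P21 WT equalled the mean of libraries 57, 60 and 63, within 0.1% or 0.001 TPM, in all 56066 rows, against 32139 for libraries 57 and 60 alone. Libraries P21 WT 2 and 3 are not in that mean.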
